A study of Saccharomyces cerevisiae with 6 samples.

Results

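The silent mating type loci of budding yeast, HML and HMR, were taken as chromosome 3 from 10000 to 16000 and from 291000 to 297500 on the sacCer1 build. These stretches hold the 4 genes HMLALPHA1 (YCL066W), HMLALPHA2 (YCL067C), HMRA1 (YCR097W) and HMRA2 (YCR096C). Nucleosomes were called once on the summed reads of all 6 libraries, and 59 of these 54902 consensus nucleosomes had their centre at these loci, 30 at HML and 29 at HMR. The part between the silencers, called the silent stretch here, ran from 11200 to 14800 at HML and from 292600 to 294900 at HMR and held 18 and 10 of them. The 2.5 kb on each outer side served as flanks. No sacCer1 annotation was used, so the positions of genes and silencers are approximate and features are placed by their distance from the middle of the silent stretch.

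The data came from MNase-seq, in which micrococcal nuclease digests the linker DNA of formaldehyde-fixed chromatin and the protected fragments of the mononucleosome band are sequenced. In the H3 shutoff strain (DCB200.1), HHT1 is deleted and HHT2, the only remaining histone H3 gene, is driven by the GAL1 promoter. Cells were grown in galactose, moved to dextrose and collected at once (0 h, n = 2 libraries) or after 3 h (n = 2), and wildtype (YEF473A) cells were treated in the same way (n = 1 at each time). The 0 h and 3 h libraries of a replicate came from 1 culture and are called a pair, of which there were 2 for H3 shutoff and 1 for wildtype. In dextrose the H3 shutoff cells arrest in G2/M, so cell cycle stage and H3 supply cannot be told apart. Wildtype values have no replicate error. The mating type of the strains is not given in the sources used here.

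HML and HMR carry complete copies of the mating type genes that are kept silent, while the copy at MAT is the one expressed. Sir proteins, brought in by Rap1, Abf1 and the origin recognition complex at the E and I silencers on either side, spread over the nucleosomes between them and deacetylate their histone tails. HMLALPHA1 encodes an activator of alpha-specific genes, HMLALPHA2 a repressor of a-specific genes, HMRA1 the partner with which the alpha2 protein represses haploid-specific genes in diploid cells, and HMRA2 a protein with no known function. In the RefSeq gene order, VBA3 (a vacuolar transporter) and YCL068C lie on the telomere side of HML and CHA1 (a serine and threonine deaminase) on the centromere side, while OCA4 and YCR095W-A lie on the centromere side of HMR and GIT1 (a glycerophosphoinositol transporter) on the telomere side.

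Each library held 5000001 reads. Distinct intervals made up 51.9% to 52.7% of reads in H3 shutoff at 0 h, 59.5% to 64.5% at 3 h and 46.2% to 47.8% in wildtype, and reads had been extended to 158 and 165 bp in the H3-depleted libraries against 170 to 174 bp in the other libraries. Whether these differences bear on the results was not tested. H3 shutoff 0 h replicate 1 stood apart: over all 53684 tested nucleosomes its log2 read-centre counts correlated with replicate 2 of the same group at r = 0.767, while that replicate correlated with wildtype 0 h at r = 0.915. At the 54 tested nucleosomes of the silent loci the same correlations were 0.90 and 0.943. Since HML, HMR and MAT share sequence, a read that fits several copies was placed by the aligner at 1 of them. The size of this exchange could not be measured, because no offset between the copies gave a read profile that stood out in every library. The clearest was HMRA2 against MAT, where 4 of 6 libraries had the same best offset and 1 other lay 20 bp away. The largest correlation for a gene within a library was 0.235 to 0.539, and it led the next offset by 0.003 to 0.154.

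At HML, the silent stretch held its read centres between 0 h and 3 h in H3 shutoff cells while the flank on the telomere side held fewer. A read centre is the midpoint of an extended read and marks the middle of a nucleosome. The silent stretch had 1333 and 1242 read centres in H3 shutoff replicates 1 and 2 at 0 h, then 1366 and 1430 at 3 h, against 971 at the earlier and 1010 at the later time in wildtype. The flank on the VBA3 side had 1410 and 1430 at 0 h, 1115 and 1218 at 3 h, with 1208 and 1350 in wildtype. The flank on the CHA1 side had 930 and 674 at 0 h, then 725 and 726 at 3 h, so its replicates changed in opposite directions, and 592 and 593 in wildtype. Because every library was drawn to the same number of reads, these are shares of the reads and not amounts of nucleosomes.

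The ratio of read-centre density in the HML silent stretch to that in its flanks therefore moved towards equality. On the log2 scale it was -0.34 and -0.29 in H3 shutoff at 0 h, then 0.04 and 0.03 at 3 h, a change of 0.35 ± 0.046 (SD, n = 2 pairs). The wildtype ratio went from -0.42 to -0.47, a change of -0.05. All 4 libraries with unlimited H3 lay below the 2 H3-depleted libraries. The smallest p that an exact two-sided permutation test allows between 2 and 2 libraries is 1 in 3, and none is printed. The same change in 3314 windows of 3.6 kb across the genome ran from -0.36 to 0.37 between its 5th and 95th percentiles, and HML lay inside that range. With 1 read kept per identical interval the change was 0.23, beside 0.14 in wildtype.

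At HMR the same ratio hardly differed between times. It was 0.27 in both H3 shutoff replicates at 0 h, and 0.27 and 0.29 at 3 h, a change of 0.01 ± 0.013 (SD, n = 2 pairs), against 0.14 in wildtype. The silent stretch itself had 899 and 680 read centres at 0 h, 798 and 815 at 3 h, with 643 and 749 in wildtype, so its replicates went opposite ways. Its flanks were unlike each other. On the OCA4 side the flank had 609 and 492 read centres at 0 h, then 704 and 723 at 3 h, with 467 and 454 in wildtype. On the GIT1 side it had 1016 and 733 at 0 h, then 737 and 725 at 3 h, with 729 and 813 in wildtype. Against the OCA4 flank alone, the ratio differed between times by -0.34 ± 0.062 (SD, n = 2 pairs), with 0.26 in wildtype.

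**Figure D1:**
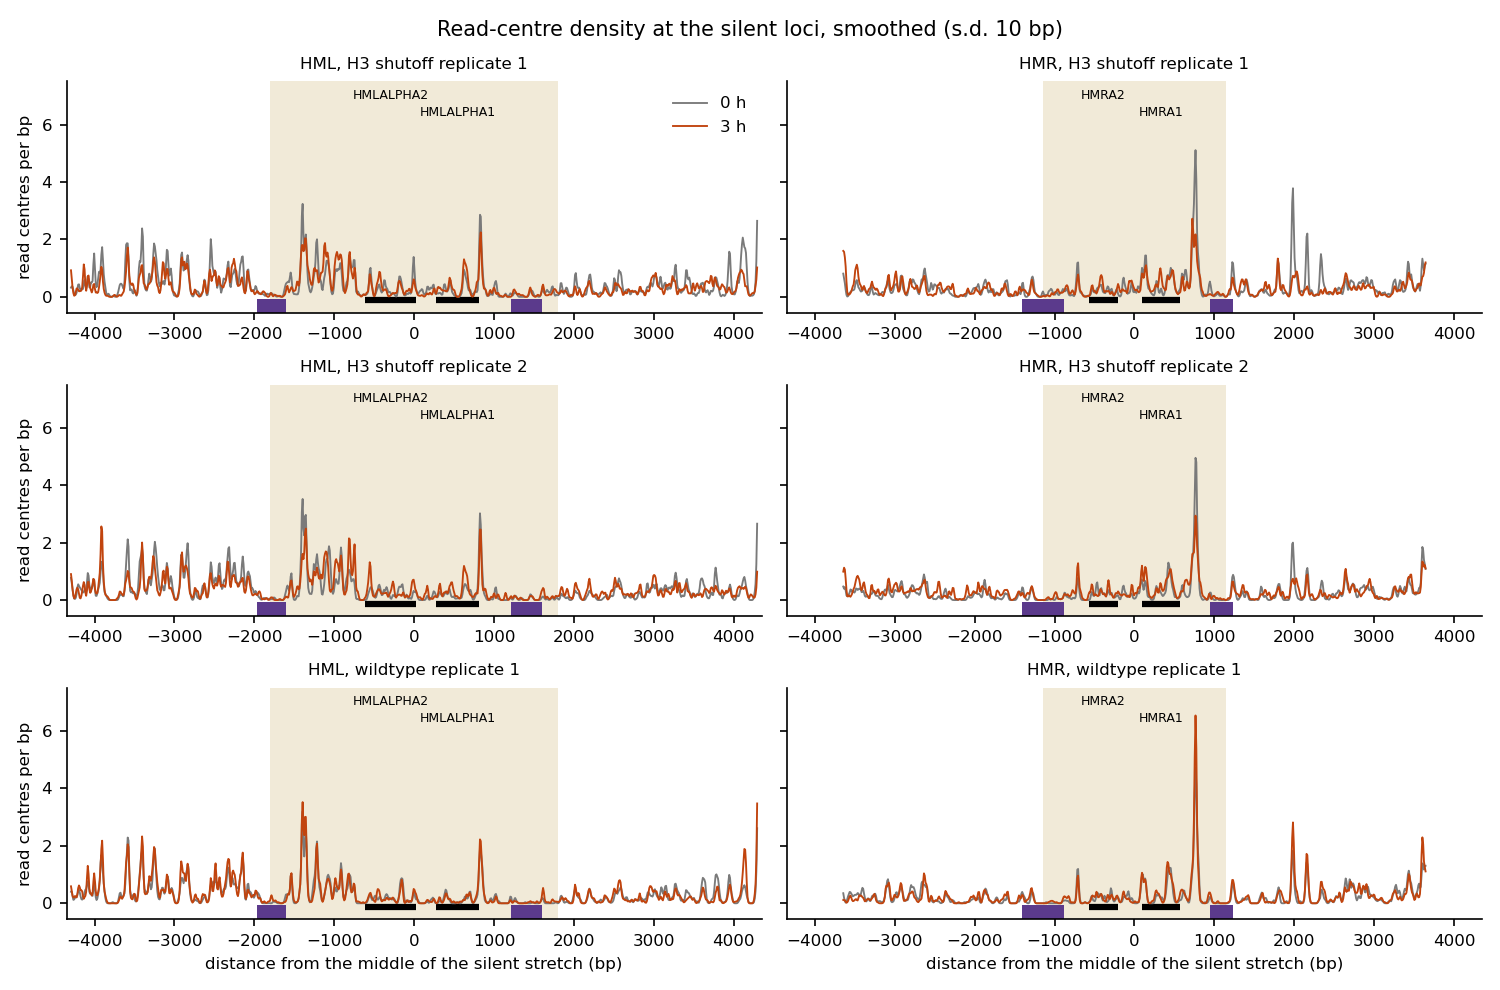
Smoothed read-centre density (read centres per bp, Gaussian s.d. 10 bp) against distance in bp from the middle of the silent stretch, for HML (left) and HMR (right), with 1 row for each pair and grey and orange lines for 0 h and 3 h. Shading marks the silent stretch, black bars the approximate genes and violet bars the silencer gaps of wildtype 0 h; the tall peak inside HMR-I and the peaks right of HMR are lower at 3 h in H3 shutoff replicate 1, and the tall peak is also lower in replicate 2.

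The read profile over the silent stretch of HML had a larger autocorrelation at 3 h than at 0 h in both H3 shutoff pairs. Regularity was measured as the largest autocorrelation of the read-centre density at lags of 120 to 220 bp. In the HML silent stretch it was 0.436 and 0.468 in H3 shutoff at 0 h, then 0.529 and 0.540 at 3 h, a change of 0.083 ± 0.015 (SD, n = 2 pairs). The wildtype values were 0.443 and 0.386 in order of time. Both H3-depleted values were the highest of the 6 libraries. The lag that gave the largest value was not constant. It moved from 178 to 172 bp in replicate 1, from 158 to 174 bp in replicate 2 and from 149 to 169 bp in wildtype. Density was also uneven along the stretch. In H3 shutoff at 0 h the 500 bp from 11501 held 428 and 514 read centres, those from 14001 only 48 and 35. The part of this unevenness in the regularity was not tested. In 3339 genome windows of the same length the median regularity in H3 shutoff was 0.371 and 0.378 at 0 h, then 0.195 and 0.247 at 3 h, with 95th percentiles of 0.389 and 0.443 at 3 h. The HML silent stretch thus lay inside the middle 90% of windows at 0 h and above it at 3 h in both replicates. The change in the windows had a median of -0.147 and a 95th percentile of 0.0385. With 1 read kept per identical interval the change at HML was 0.046, and in wildtype it was then 0.017.

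The flanks of HML did not share this. On the VBA3 side the regularity was 0.227 and 0.298 in H3 shutoff at 0 h, then 0.127 and 0.087 at 3 h, against 0.264 and 0.281 in wildtype. On the CHA1 side it was 0.474 and 0.367 at 0 h, then 0.183 and 0.086 at 3 h, against 0.477 and 0.357 in wildtype. In both flanks the H3-depleted libraries were the lowest of the 6. The difference between the silent stretch and its flanks was not tested. The autocorrelation does not show that single positions or a period were kept. The lists of called nucleosomes made by the authors held 18 and 15 nucleosomes in the HML silent stretch at 0 h, then 17 and 13 at 3 h, with 16 and 15 in wildtype. Of the distances between neighbouring called centres, 1 of 17 and 3 of 14 exceeded 250 bp at 0 h but 3 of 16 and 9 of 12 did at 3 h, against 2 of 15 and 5 of 14 in wildtype. By called centres, replicate 2 at 3 h was thus the least evenly covered library.

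At HMR the pattern was different. The silent stretch had a regularity of 0.108 and 0.023 in H3 shutoff at 0 h, then 0.069 and 0.013 at 3 h, with 0.008 and 0.090 in wildtype, so it was low in every library and overlapped between times. At 0 h the 5th percentile of windows of that length was 0.0793 and 0.0680, which replicate 1 exceeded and replicate 2 did not. On the GIT1 side the regularity was 0.628 and 0.426 at 0 h, then 0.189 and 0.263 at 3 h, against 0.525 and 0.487 in wildtype, and the H3-depleted libraries were again the lowest. On the OCA4 side it was 0.294 and 0.269 at 0 h, then 0.329 and 0.332 at 3 h, against 0.418 and 0.254 in wildtype.

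**Figure D2:**
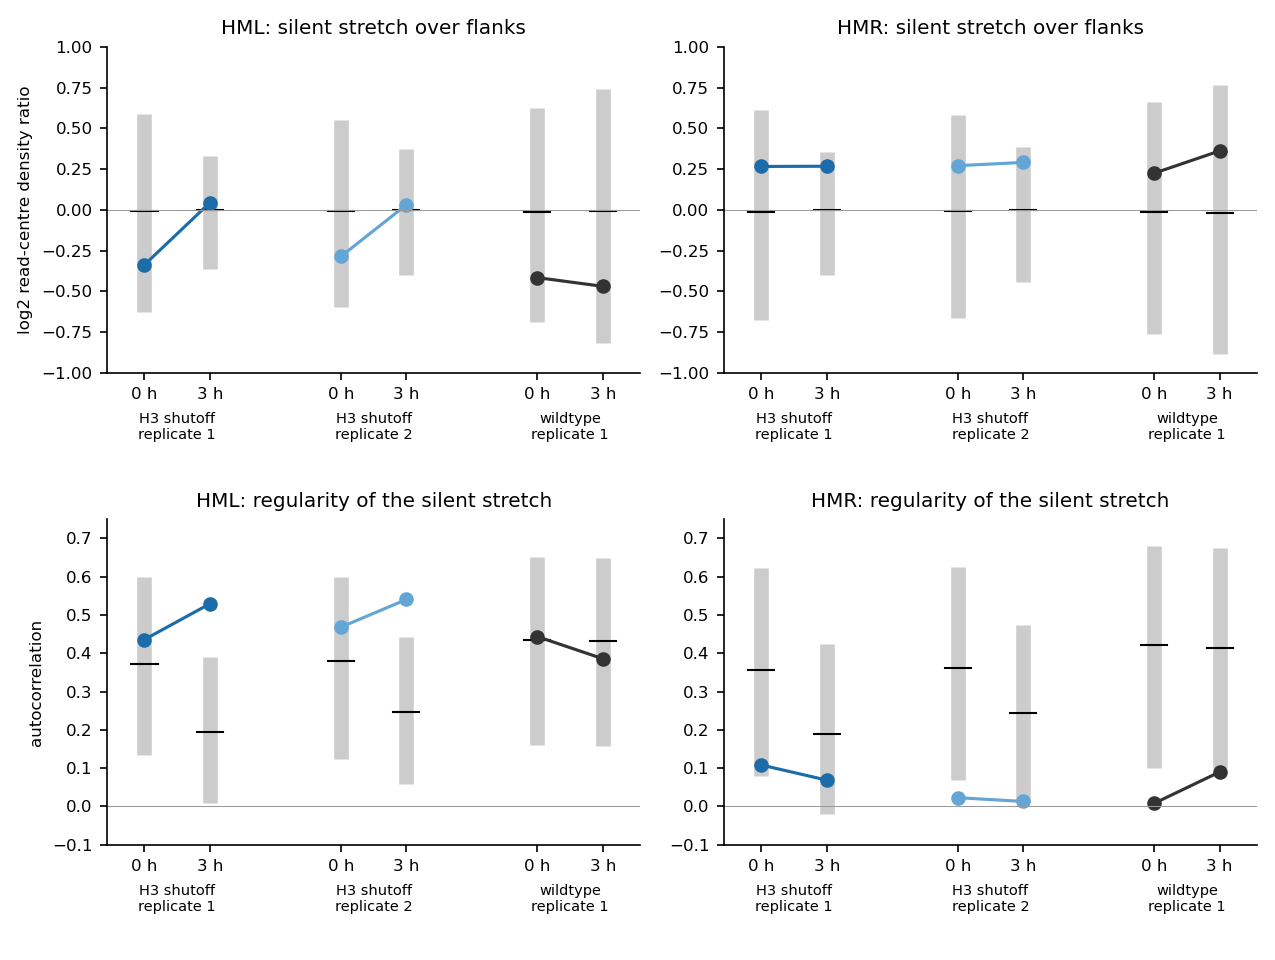
Log2 ratio of read-centre density in the silent stretch to that in both flanks (top) and regularity of the silent stretch as an autocorrelation (bottom), for HML (left) and HMR (right). Points joined by a line are the 0 h and 3 h libraries of a pair, grey bars the 5th to 95th percentile and black ticks the median of genome windows of the same length; the HML regularity of both H3 shutoff replicates is above the grey bar at 3 h, at 0.529 and 0.540.

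Within HML, read centres over HMLALPHA1 were more frequent at 3 h than at 0 h. The gene held 125 and 108 read centres in H3 shutoff at 0 h, then 183 and 187 at 3 h, with 65 and 74 in wildtype. In log2 units the difference between times was 0.55 and 0.79 in the pairs, with counting errors of 0.17 each, and 0.19 in wildtype with a counting error of 0.25. All H3 shutoff libraries lay above both wildtype libraries, at 0 h too, and the part in this of reads shared with the alpha copy of MAT was not tested. HMLALPHA2 held between 127 and 198 in the 6 libraries, and its log2 change of -0.12 in replicate 1, 0.35 in replicate 2 and -0.03 in wildtype had no common direction. HMRA1 held 226 and 168 at 0 h, 248 and 235 at 3 h, with 181 and 210 in wildtype, and HMRA2 held 80 and 81 at 0 h, 88 and 94 at 3 h, with 69 and 76 in wildtype. The log2 change of HMRA1 was 0.13 with a counting error of 0.13 in replicate 1 but 0.48 with 0.15 in replicate 2, and both HMRA2 changes were below their counting errors.

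Single nucleosomes were tested on the read centres within 50 bp of the consensus centre. Of the 59 consensus nucleosomes 54 had a mean of at least 10 read centres and entered the test, and by edgeR's quasi-likelihood test with Benjamini-Hochberg adjustment over 53684 nucleosomes 1 of them was lower and 1 higher at 3 h than at 0 h in H3 shutoff cells. Over the genome 2.96% of tested nucleosomes were called lower and 2.73% higher, so 1 call each way among 54 lay near the background. In the contrast of the change in H3 shutoff with that in wildtype, no nucleosome of the silent loci passed by edgeR or by DESeq2. By edgeR the genome had 0.082% lower and 0.0708% higher, and by DESeq2 no nucleosome of the genome passed. No call among 54 thus lay near the background of both. An unadjusted edgeR p under 0.05 was found for 4 of the 54, against 6802 of 53684 in the genome. By DESeq2 it was found for 0 of them, against 585 in the genome. The median log2 value of that contrast at the silent loci was -0.14. It was 0.19 and -0.26 without 0 h replicates 1 and 2, and -0.10 and -0.26 without 3 h replicates 1 and 2. Over all tested nucleosomes it was -0.03, and between -0.05 and -0.005 in those fits. The median log2 change at the 54 nucleosomes was 0.14, against 0.02 over all tested nucleosomes, but its sign depended on single libraries. It was 0.33 without 0 h replicate 1, -0.16 without 0 h replicate 2, 0.07 without 3 h replicate 1 and -0.03 without 3 h replicate 2. With the replicate block left out, no nucleosome of the genome passed, although 12593 had an unadjusted p under 0.05, 7 of them at the silent loci.

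The nucleosome that rose lay in HMLALPHA1, at 13626, which is 626 bp to the right of the middle of the silent stretch. It had 52 and 34 read centres in H3 shutoff at 0 h, then 83 and 76 at 3 h, with 12 and 15 in wildtype. The H3-depleted libraries did not overlap with the 0 h libraries, and both wildtype libraries were lower than any H3 shutoff library. The log2 change was 1.09 ± 0.35 (SE; adjusted p = 0.0378, edgeR). The adjusted p was 0.0766 without the replicate block and 0.0939 with library totals in place of TMM factors, and with 1 read kept per identical interval the log2 change was 0.58 (adjusted p = 0.399). Leaving out 1 library at a time, which needs the fit without the block, gave an adjusted p of 0.00479 without 0 h replicate 1, 0.104 without 0 h replicate 2, and 0.434 and 0.235 without 3 h replicates 1 and 2. The neighbour in the same gene, at 13447, had 28 and 25 at 0 h, 37 and 42 at 3 h, with 14 and 17 in wildtype, and did not pass (edgeR, adjusted p = 0.345).

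The deepest nucleosomes of HML, chosen here after their values were seen, did not pass the test. The one at 11602, just inside HML-E, had 182 and 220 read centres at 0 h, 146 and 148 at 3 h, with 187 and 221 in wildtype (log2 change -0.26, edgeR adjusted p = 0.654). The one at 13829, just past the end of HMLALPHA1, had 124 and 131 at 0 h, 101 and 100 at 3 h, with 104 and 115 in wildtype (log2 change -0.16, edgeR adjusted p = 0.787). In both the H3-depleted libraries were the lowest of the 6, by a margin that the test did not separate from no change.

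The widest distance between called centres in wildtype 0 h near the promoter shared by HMLALPHA2 and HMLALPHA1 was 187 bp. It ran from 12851 to 13038, mostly over the start of HMLALPHA2. The median spacing of the HML silent stretch in that library was also 187 bp, so this was no wider than usual there. The consensus nucleosomes nearest its edges were at 12825 and 12995, and 12995 lay inside it. The former had 37 and 39 at 0 h, 33 and 19 at 3 h, with 47 and 34 in wildtype (log2 change -0.39, edgeR adjusted p = 0.629). The latter had 51 and 21 at 0 h, 31 and 45 at 3 h, with 18 and 27 in wildtype (log2 change 0.33, edgeR adjusted p = 0.70). Its replicates went opposite ways, and its log2 change turned negative without either library of replicate 2.

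Of the other nucleosomes at HML, those with the most negative mean log2 changes were next to HML-E. The nucleosome at 11416, on the inner side of the HML-E gap, had 56 and 46 at 0 h, 21 and 29 at 3 h, with 49 and 42 in wildtype, a log2 change of -0.84 ± 0.40 (SE; edgeR adjusted p = 0.184). The one at 10853, outside the gap, had 83 and 82 at 0 h, 40 and 52 at 3 h, with 81 and 89 in wildtype, a log2 change of -0.66 ± 0.31 (SE; edgeR adjusted p = 0.177). In each of these the H3-depleted libraries were the lowest of the 6 and did not overlap with the rest, yet neither passed. Between them, at 11023 on the outer edge of the gap, there were 23 and 25 at 0 h, 16 and 20 at 3 h, with 32 and 31 in wildtype (log2 change -0.23). The nucleosome at 12653 in HMLALPHA2 (32 and 31 at 0 h, 14 and 22 at 3 h) overlapped with wildtype (21 and 14). The nucleosome at 14259, on the left of the HML-I gap, had 4 to 14 read centres and was too shallow for the test. The nucleosomes with the other large positive mean log2 changes, at 14613 beside HML-I (14 and 5 at 0 h, 16 and 21 at 3 h, 7 and 18 in wildtype) and at 15827 towards CHA1 (17 and 17 at 0 h, 23 and 30 at 3 h, 11 and 14 in wildtype), were shallow and did not pass.

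**Figure D3:**
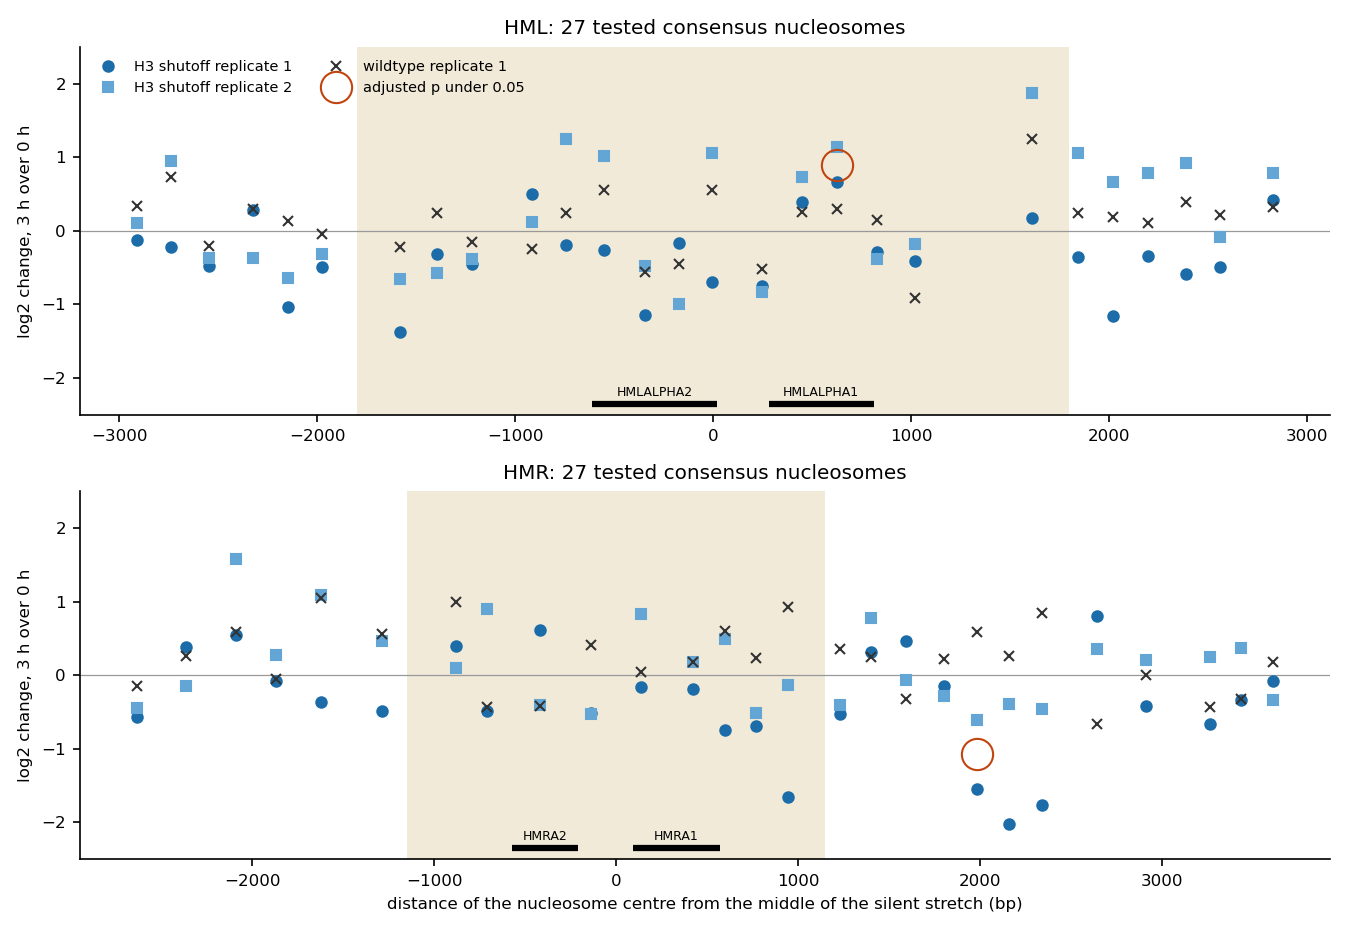
Log2 change in read centres from 0 h to 3 h (pseudocount of 1 read centre, not scaled) of each tested consensus nucleosome at HML (top) and HMR (bottom), against the distance of its centre in bp from the middle of the silent stretch. Circles and squares are the H3 shutoff pairs, crosses the wildtype pair, shading the silent stretch and open rings the mean of the nucleosomes with an edgeR adjusted p under 0.05; 1 ring lies in HMLALPHA1 and 1 right of HMR.

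The nucleosome that fell lay outside the silencers of HMR, at 295732, which is 1982 bp to the right of the middle of the silent stretch and on the side of GIT1. It had 159 and 89 read centres in H3 shutoff at 0 h, then 54 and 58 at 3 h, with 76 and 115 in wildtype. The H3-depleted libraries were the lowest of the 6 and did not overlap with the others. The log2 change was -0.92 ± 0.29 (SE; adjusted p = 0.0385, edgeR). Without the replicate block the adjusted p was 0.0901. In the fit without the block, leaving out 0 h replicate 1, the library that stood apart, gave -0.46 (adjusted p = 0.317), and leaving out 0 h replicate 2 gave -1.36 (adjusted p = 0.000200). Without 3 h replicates 1 and 2 the adjusted p was 0.388 and 0.217. With 1 read kept per identical interval the log2 change was -0.24 (adjusted p = 0.809).

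The nucleosome to its left, at 295549, had slightly fewer read centres at 3 h in both H3 shutoff pairs. It held 62 and 33 at 0 h, then 56 and 27 at 3 h, with 23 and 27 in wildtype. The nucleosome at 295732 was the first of 3 in a row with larger falls in both pairs. The log2 changes were -1.54, -2.02 and -1.77 in replicate 1, whose 0 h library stood apart. In replicate 2 they were -0.61, -0.40 and -0.46. Around 295732 the s.d. of read centres within 73 bp went from 21.5 to 29.3 bp in replicate 1. It went from 15.9 to 32.8 bp in replicate 2 and from 13.7 to 19.1 bp in wildtype. Its part in the counts within 50 bp was not tested. The second, at 295910, had 84 and 49 read centres in H3 shutoff at 0 h, then 20 and 37 at 3 h, with 59 and 71 in wildtype, with a log2 change of -1.02 ± 0.35 (SE; edgeR adjusted p = 0.0585). The third, at 296088, had 67 and 32 at 0 h, 19 and 23 at 3 h, with 23 and 42 in wildtype, with a log2 change of -0.98 ± 0.44 (SE; edgeR adjusted p = 0.158). In replicate 1 the array held more read centres at 0 h than any other library did, and the H3-depleted libraries of the third overlapped with wildtype. All 3 were more frequent in wildtype at 3 h than at 0 h, and the contrast between strains gave an unadjusted edgeR p of 0.00184, 0.0220 and 0.0125 in that order, none past the adjusted threshold. The next nucleosome, at 296394, had a change of opposite sign, with 31 and 46 at 0 h, 55 and 59 at 3 h, with 56 and 35 in wildtype (log2 change 0.77, edgeR adjusted p = 0.175).

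Between the HMR silencers the largest nucleosome of both loci lay at 294517, just inside HMR-I (chosen here after its values were seen). It had 287 and 260 read centres at 0 h, 178 and 181 at 3 h, and 248 in wildtype at 0 h, and the highest count of all libraries was that of wildtype at 3 h. The H3-depleted libraries were well apart from the other 4. The log2 change was -0.42 ± 0.32 (SE; edgeR adjusted p = 0.457). The 500 bp window from 294501 to 295000, which contains it, had 278 and 253 at 0 h, 162 and 185 at 3 h, with 237 and 287 in wildtype, a log2 change of -0.63 ± 0.21 (SE; edgeR adjusted p = 0.0506 over 23908 windows). No window of 23 tested at the silent loci passed, against 2.52% lower and 2.66% higher in the genome. By edgeR 2 of the 23 windows had an unadjusted p under 0.05, against 4980 of 23908 in the genome. By DESeq2 0 of the 23 had, against 1309 in the genome. The median log2 change of the tested windows at the silent loci was 0.11. It was 0.17 without 0 h replicate 1 and -0.12 without 0 h replicate 2.

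The remaining nucleosomes of HMR that border a gap or had large mean log2 changes were shallower. At 294694, on the inner edge of the HMR-I gap, there were 21 and 10 read centres at 0 h, 6 and 9 at 3 h, with 9 and 18 in wildtype. At 294979, on the outer edge, there were 54 and 44 at 0 h, 37 and 33 at 3 h, with 31 and 40 in wildtype. At 292871, on the inner edge of the HMR-E gap, there were 21 and 13 at 0 h, 28 and 14 at 3 h, with 7 and 15 in wildtype. At none of these did the times separate beyond the wildtype libraries. The nucleosome at 293612 had 29 and 25 at 0 h, 20 and 17 at 3 h, with 14 and 19 in wildtype. It lay inside the gap of 217 bp between HMRA2 and HMRA1 (293457 to 293674), near its right edge. The most positive mean log2 changes were at 291662 (10 and 7 at 0 h, 15 and 23 at 3 h, 5 and 8 in wildtype) and, past HMR-I, after 296394 at 295150 (31 and 17 at 0 h, 39 and 30 at 3 h, 15 and 18 in wildtype). None of these 6 passed by edgeR, and no consensus centre lay within 80 bp of the left edge of the HMR-E gap or of the HMR promoter gap.

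**Figure D4:**
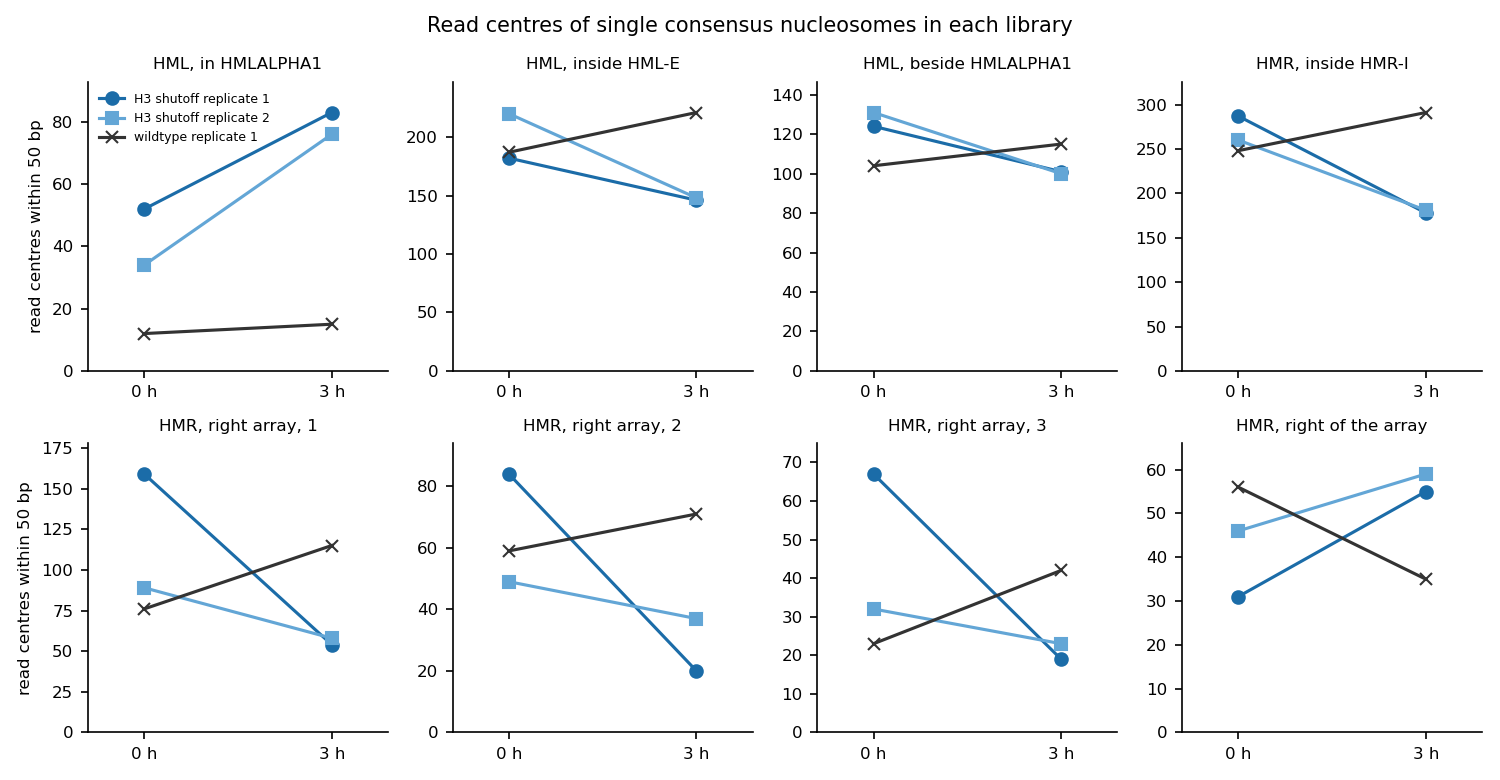
Read centres within 50 bp of 8 consensus nucleosome centres at 0 h and 3 h, with 1 line for each pair and the vertical axis starting at 0. The nucleosome in HMLALPHA1 is higher at 3 h in both H3 shutoff pairs, and the nucleosome inside HMR-I goes from 287 and 260 to 178 and 181 read centres; the right array of HMR is highest in H3 shutoff replicate 1 at 0 h.

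In direction, 12 of 27 tested nucleosomes at HML and 10 of 27 at HMR had fewer read centres at 3 h in both H3 shutoff pairs, close to the 42.4% of all tested nucleosomes. At HML 5 and at HMR 4 had more in both, against 22.3% of all. At HMR 9 of the 10 had at the same time more read centres in wildtype, and at HML 4 of the 12. Over all tested nucleosomes 11270 of the 22751 with fewer in both pairs did. Right of the HMR silent stretch, 6 of 12 nucleosomes combined fewer in both H3 shutoff pairs with more in wildtype, against 21% of all tested nucleosomes. These shares describe the loci and were not tested.

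Nucleosomes were less sharply placed at 3 h in H3 shutoff cells, at the silent loci as over the genome. The spread of read centres, their s.d. within 73 bp of the consensus centre, had a median of 28.2 and 27.0 bp over 15 nucleosomes of the HML silent stretch at 0 h, then 32.4 and 33.8 bp at 3 h, against 27.5 and 26.0 bp in wildtype. At HMR the median over 9 nucleosomes was 30.4 and 29.8 bp at 0 h, then 36.4 and 34.4 bp at 3 h, against 25.8 and 28.1 bp in wildtype. The H3-depleted medians were the widest of the 6 libraries at both loci. The spread was wider in both pairs for 10 of 15 nucleosomes at HML and for 7 of 9 at HMR, against 64.0% of all tested nucleosomes, and in the wildtype pair for 10 and 5, against 47.1%. Over the genome the median spread was 31.4 and 30.3 bp at 0 h, then 36.0 and 35.8 bp at 3 h. In the flanks it was wider in both pairs for 3 of 6 nucleosomes on each side of HML, 4 of 6 left of HMR and 6 of 12 right of it. The shorter extension of the 3 h reads moved with this, and its part in the result was not tested.

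Positions called in each library were compared within a pair by the study's own classes, which test 2 libraries and not the conditions. In H3 shutoff replicate 1, 4 of 56 nucleosomes compared at the silent loci were classed as reduced, against 4.69% of the genome, and all 4 were at HMR, the tall nucleosome inside HMR-I (288 to 162 read centres) and the 3 of the right array (159 to 62, 84 to 11 and 67 to 16). Each of these counts was taken around the centre called in its own library, and the centres differed between times (295911 and 295966 for the second of the array). At 1 consensus centre for both times 3 of 59 were reduced, against 2586 of 54072 in the genome. With 1 read kept per identical interval 0 of 56 were reduced, and 2 of 50698 in the genome. In replicate 2, 0 of 48 were reduced (genome 3%), and in wildtype 0 of 51 (genome 0.363%). None was classed as retained in any pair, against 1.16%, 0.701% and 0.992% of the genome. Altered position was called for 10 of 56, 15 of 48 and 4 of 51 (genome 24.5%, 25.7% and 10.3%). Between the replicates of H3 shutoff, 0 nucleosomes of the silent loci were reduced or retained at either time (genome 1.29% and 0.312% at 0 h, 0.244% and 0.157% at 3 h), while 5 of 51 were altered at 0 h (genome 10.1%) and 8 of 52 at 3 h (genome 7680 of 52812).

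Among the altered calls, 2 nucleosomes outside HML-E, chosen here after their values were seen, shifted to the same side in both H3 shutoff pairs. The centre called at 10852 and 10856 at 0 h was called at 10916 and 10920 at 3 h, and its mean read-centre position moved by 54.5 and 44.7 bp towards the silencer. The next centre, at 11023 and 11029, was called at 11111 and 11086, with a mean shift of 78.3 and 72.0 bp. In wildtype the corresponding shifts were -2.62 and -0.868 bp, between the 0 h replicates 7.52 and -20.9 bp, and between the 3 h replicates -2.23 and -27.1 bp. The counts behind the second were low, at 23 and 19 read centres at 0 h, then 12 and 14 at 3 h. With 1 consensus window for both times, 0 nucleosomes of the silent loci were called altered in any pair, so these calls rest on a window that moves with the called centre.

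The silencers were looked for as gaps between called centres in wildtype 0 h, which had widths of 369 bp at HML-E, 397 bp at HML-I, 522 bp at HMR-E and 283 bp at HMR-I. Read centres within 100 bp of the middle of a gap were few. HML-E had 14 and 8 in H3 shutoff at 0 h, then 11 and 6 at 3 h, with 3 and 17 in wildtype. The HML-I gap had 12 and 10 at 0 h, 17 and 11 at 3 h, with 2 and 4 in wildtype. It lay 1210 to 1607 bp right of the middle of the silent stretch. The approximate HML-I silencer was taken as 1500 to 1800 bp. The middle of the gap, at 14408, lay left of that place, so these counts describe the gap and not the silencer itself. The gaps were chosen in wildtype 0 h, so the low counts of that library are a description.

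At HMR-I there were 11 and 1 read centres in H3 shutoff at 0 h, then 19 and 10 at 3 h, with 0 and 3 in wildtype, where a count of 0 allows up to 3. HMR-E had 18 and 1 at 0 h, 7 and 5 at 3 h, with 1 and 3 in wildtype. Relative to the locus the log2 change was 1.75 ± 1.15 (SD, n = 2 pairs) at HMR-I, 0.25 ± 1.95 at HMR-E, 0.40 ± 0.40 at HML-I and -0.27 ± 0.18 at HML-E, against 2.67, 1.09, 0.76 and 2.23 in wildtype. The spread between pairs was as large as the change at HML-I and larger at HMR-E, where replicate 1 gave -1.13 and replicate 2 gave 1.63. Because the gaps were placed where called centres of wildtype 0 h lay far apart, a positive wildtype change was favoured. With gaps placed in H3 shutoff 0 h, which favours positive H3 shutoff changes in turn, the wildtype changes were 1.09 at HMR-I, -0.76 at HMR-E, 1.25 at HML-I and -0.19 at HML-E, beside H3 shutoff means of 1.73, -0.08, 0.74 and -0.64. No comparison of the strains is drawn from these gaps.

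The approximate promoter stretches between the divergent genes had no common direction at HML. The stretch between HMLALPHA2 and HMLALPHA1 held 57 and 24 read centres at 0 h, 28 and 39 at 3 h, with 16 and 18 in wildtype, so its replicates went opposite ways. The stretch between HMRA2 and HMRA1 held 76 and 66 at 0 h, 88 and 83 at 3 h, with 49 and 42 in wildtype, and the log2 changes of 0.21 and 0.33 had counting errors of 0.23 and 0.24.

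**Figure D5:**
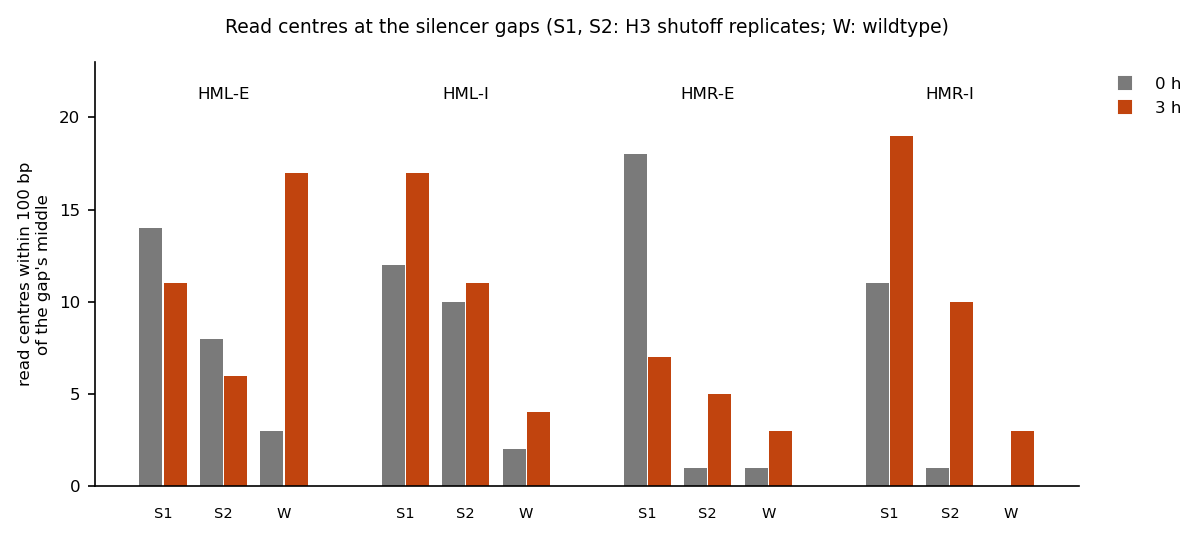
Bars give the read centres within 100 bp of the middle of each silencer gap at 0 h (grey) and 3 h (orange) for H3 shutoff replicates 1 and 2 (S1, S2) and wildtype (W). Counts are between 0 and 19 in every library, and the replicates differ at 0 h by 18 against 1 at HMR-E and by 11 against 1 at HMR-I.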

How the data were processed

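MNase-seq intervals and nucleosome lists of 6 libraries were used. The authors aligned reads to sacCer1 with Bowtie 0.12.6 at default settings, extended them to the average fragment size, removed ribosomal DNA and drew 5000001 reads per library. The deposited counts are whole-number counts of read centres per called nucleosome, not normalized, and deposited positions are in bp. Groups and replicates came from the sample titles.

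Read centres were taken from the intervals. The authors' calling procedure (Gaussian s.d. 10 bp) was rerun on the pooled libraries for consensus nucleosomes with a protected length of 169 bp. Counts within 50 bp of each centre (mean of at least 10) and in 500 bp windows (mean of at least 50) were tested over the whole genome with edgeR 4.0.16 (glmQLFit, glmQLFTest, TMM) in R 4.3.3, with the replicate pair as a block and Benjamini-Hochberg adjustment at 0.05. DESeq2 1.42.0 was an alternative. The pairing comes from the study's methods, in which a culture is sampled at both times. As a check, deviations of same-numbered libraries correlated at r = -0.116 over 53684 nucleosomes. Replicates differed by more than counting noise (chi-square over its degrees of freedom 3.93 at 0 h, 2.11 at 3 h) and were counted as separate samples. The fit with the block had 1 residual degree of freedom, which came from the 2 H3 shutoff pairs alone. Its p-values set the mean change of these 2 pairs, or its difference from the wildtype change, against a spread. That spread is how far the changes of the 2 pairs differ, moderated over the genome. The p-values hold no spread of wildtype.

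Classes followed the study's methods, with Bonferroni-corrected p under 0.01 and a 30 bp overlap. For the autocorrelation the density was limited at a high genome-wide percentile, so that single tall peaks count less. Pairwise log2 changes had 1 read centre added, gap densities 0.5. Reads carry no molecular identifiers, so counting errors cover counting error only. Tests were checked on simulated data. Values are printed for nucleosomes past the edgeR threshold, those bordering a silencer or promoter gap, and the 3 largest mean rises and falls at each locus, the rest being named after their values were seen. Members and lists were chosen with earlier results of these data known. Gene names came from RefSeq (R64), where the 4 genes matched. No sequence is printed, since none of the tables used holds it.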

Additional observations from a re-analysis of the deposited data

Results flagged for a closer look

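In 6 measures both H3 shutoff pairs moved one way and the wildtype pair the other, and none of these differences between strains was tested, since there is 1 wildtype pair. The HMR ratio, the regularity of the CHA1 and GIT1 flanks and the gaps at HML-I, HMR-E and HMR-I were also screened without meeting this. How often other parts of the genome meet it was not measured. The log2 ratio of the HML silent stretch to its flanks changed by 0.38 and 0.32 in H3 shutoff and by -0.0535 in wildtype. The regularity of the HML silent stretch changed by 0.0934 and 0.0723 against -0.0578, and that of the HML flank on the VBA3 side by -0.10 and -0.211 against 0.0166. The regularity of the HMR silent stretch changed by -0.0395 and -0.00983 against 0.0820, and that of the HMR flank on the OCA4 side by 0.0348 and 0.0626 against -0.164. The log2 read density at the HML-E gap, relative to the locus, changed by -0.14 and -0.40 against 2.23, on counts of 3 to 17 read centres. That gap was placed where called centres of wildtype 0 h lay far apart, which favours a positive wildtype change. The part of this choice in the change was not tested. With the gap placed in H3 shutoff 0 h, its middle was 11314 in place of 11216. The wildtype change there was -0.19, beside -0.40 and -0.88 in H3 shutoff, all of 1 sign.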

How the results depend on the processing

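Without the replicate block the counts of lower and higher nucleosomes at the silent loci were 0 and 0, in place of 1 and 1. With library totals they were 2 and 0; this scaling moved the median log2 change of all tested nucleosomes from 0.02 to -0.17 (silent loci 0.14 to -0.04) and the genome-wide calls from 1587 lower and 1463 higher to 3630 and 589. They were 0 and 0 with 1 read per identical interval (genome 1 and 28) or 73 bp windows (genome 2 and 1). Leaving out 1 library gave a median log2 change at the silent loci of -0.16 to 0.33 for nucleosomes and -0.12 to 0.17 for windows. In the contrast between strains the nucleosome median was then -0.26 to 0.19. With no minimum count 1 window was lower (genome 612 of 24098). DESeq2 gave adjusted p-values to only 2 of 54 nucleosomes and 7 of 23 windows in the H3 shutoff comparison, so no count of calls was taken from it there; genome-wide it called 2 nucleosomes. Since r was below zero, crossed pairs were also fitted, a choice made after seeing the data. They gave 2 lower and 1 higher nucleosomes (genome 2319 and 1852) and 1 lower window (genome 1037).

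The HML ratio of silent stretch to flanks changed by 0.30 with 1 kb flanks and 0.23 with 1 read per interval. With the CHA1 flank alone it changed by 0.25 (0.39 in replicate 1, 0.10 in replicate 2, 0.05 in wildtype). The HMR ratio changed by -0.0084 with 1 kb flanks, -0.34 with the OCA4 flank alone and 0.14 with 1 read per interval. HML regularity changed by 0.0601 without the density limit and 0.0460 with 1 read per interval, and HMR regularity by -0.128 over the whole locus and 0.0405 at s.d. 20 bp. With gaps from H3 shutoff 0 h, the HML-E change was -0.64 (-0.60 with 1 read per interval) and the HMR-E change -0.0799; HMR-E was -0.0378 at 50 bp, and -1.13 to 1.63 leaving out 1 replicate. With 1 read per interval the reduced class of replicate 1 held 0 and the altered classes 4, 6 and 1; the consensus centre gave 0 altered in all 3 pairs. Log2 changes turned to 0.0349 (1 read per interval) and 0.20 (73 bp) at 293612, to -0.28 and -0.05 at 12995 without the 0 h and 3 h libraries of replicate 2 (range -0.28 to 1.05 leaving out 1 library), and to -0.13 at 292871 without 3 h replicate 1 (range -0.13 to 0.89). Counts of 0 to 19 read centres limit the gaps, and 1 residual degree of freedom the tests. The causes were not tested.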
